A study of Drosophila melanogaster with 6 samples.

Results

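Eye discs in which Hsromega was driven from the EP3037 insertion were set directly against eye discs that carried an RNAi transgene for the same RNA. The contrast was read at each locus as the FPKM in overexpression discs over the FPKM in RNAi-labelled discs, which leaves the control libraries out of the comparison. A locus entered when its FPKM was 1 or more in either group, and 9742 of 15904 loci did. FPKM divides a locus's fragments by its transcript length and by the fragments mapped in a library, so it allows levels to be compared between genes.

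The overexpression larvae had the genotype w1118; sev-GAL4/UAS-GFP with EP3037, and the RNAi-labelled larvae had w1118; sev-GAL4/UAS-GFP with hsrωRNAi. The control larvae were w1118; sev-GAL4/UAS-GFP, so all 3 groups carried the driver and the GFP transgene. Discs came from wandering larvae late in the third instar, at 30 pairs of discs a library, and each group had 2 libraries, 6 in all and 4 in the direct contrast. The sev-GAL4 driver works in only some cells of the developing retina, whereas RNA was taken from whole discs with whatever tissue came with them. The labels do not say if both libraries of a group stem from separate cultures. The authors' files give 1 pooled FPKM a group, so no value carries a replicate spread, no test between overexpression and RNAi-labelled discs could be run, and higher and lower are used below for the size of a difference only.

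Hsromega is a heat-inducible gene whose long nuclear non-coding transcripts organise omega speckles, bodies next to chromatin that hold hnRNPs and other RNA-processing proteins. In the eye disc, cells are recruited in order behind the morphogenetic furrow, first the R8 founder photoreceptor, then the other photoreceptors and cone cells, with the Sevenless receptor needed for the last photoreceptor, R7. Late in the third instar the steroid hormone ecdysone also turns on genes in many tissues.

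The targeted gene was measured first. Hsromega (chromosome 3R, 21296127 to 21317836 in dm6, a non-coding RNA gene) stood at FPKM 376 in overexpression discs and 204 in RNAi-labelled discs, with 202 in control discs. Overexpression discs were thus 1.84-fold above RNAi-labelled discs, a log2 difference of 0.88, and RNAi-labelled discs sat at the level of the control. In the authors' deposited table the q-value for Hsromega against the control was 0.758 for overexpression and 0.997 for RNAi. Since the pooled level of its target did not lie below the control, the RNAi group is called RNAi-labelled throughout; a difference within the driver's own cells was not measured. The sev gene, whose promoter drives GAL4, stood at FPKM 5.32 in overexpression discs and 6.23 in RNAi-labelled discs, with 14.7 in control discs. The locus that joins w, the pigment transporter used as a transgene marker, with CG32795 stood at 86.1 in overexpression discs and 77.8 in RNAi-labelled discs, with 61.7 in control discs.

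The labelled tissue was checked against its markers. All 8 eye disc markers (ey, so, eya, dac, ato, sev, elav and gl) reached FPKM 1, and they summed to FPKM 98.8 in overexpression discs and 121 in RNAi-labelled discs, with 247 in control discs. Markers of some tissues that lie outside the disc differed by much more. The 5 salivary gland markers summed to 82.0 in overexpression discs and 3264 in RNAi-labelled discs, with 47.5 in control discs. The 5 gut markers summed to 153 in overexpression discs and 4.16 in RNAi-labelled discs, with 2.64 in control discs, and alphaTry was listed at 0 in RNAi-labelled discs. The 6 fat body markers summed to 87.2 in overexpression discs and 169 in RNAi-labelled discs, with 39.2 in control discs, and the 4 muscle markers to 1555 in overexpression discs and 771 in RNAi-labelled discs, with 1407 in control discs. Sums for haemocytes (17.5 in overexpression discs and 18.3 in RNAi-labelled discs), glia (80.0 in overexpression discs and 88.5 in RNAi-labelled discs), the ring gland (71.1 in overexpression discs and 82.1 in RNAi-labelled discs) and the antennal disc (36.2 in overexpression discs and 36.9 in RNAi-labelled discs) lay close together.

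Most loci had nearly the same level in both groups. Of the 9742 loci, 9087 (93.3%) lay within 2-fold, the median log2 difference was 0.03, and the quartiles were -0.20 and 0.24. The 5th and 95th percentiles were -0.70 and 0.88, and the log2 difference of Hsromega itself lay at the 95th percentile of all loci. All differences are log2 of overexpression over RNAi-labelled after 0.1 was added to both FPKM values, which understates the difference of low loci. Loci 2-fold or more higher in overexpression discs numbered 380 (3.9%), and 275 (2.82%) were 2-fold or more lower. At 4-fold or more the counts were 124 higher (1.27%) and 98 lower (1.01%). The overexpression and RNAi-labelled discs were closer to each other than either was to the control: 6.72% of loci lay past 2-fold between them, against 18.4% of 9977 loci between overexpression and control and 16.5% of 9891 loci between RNAi-labelled and control discs. These shares involve the same 3 pooled values and are given as a description.

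**Figure D1:**
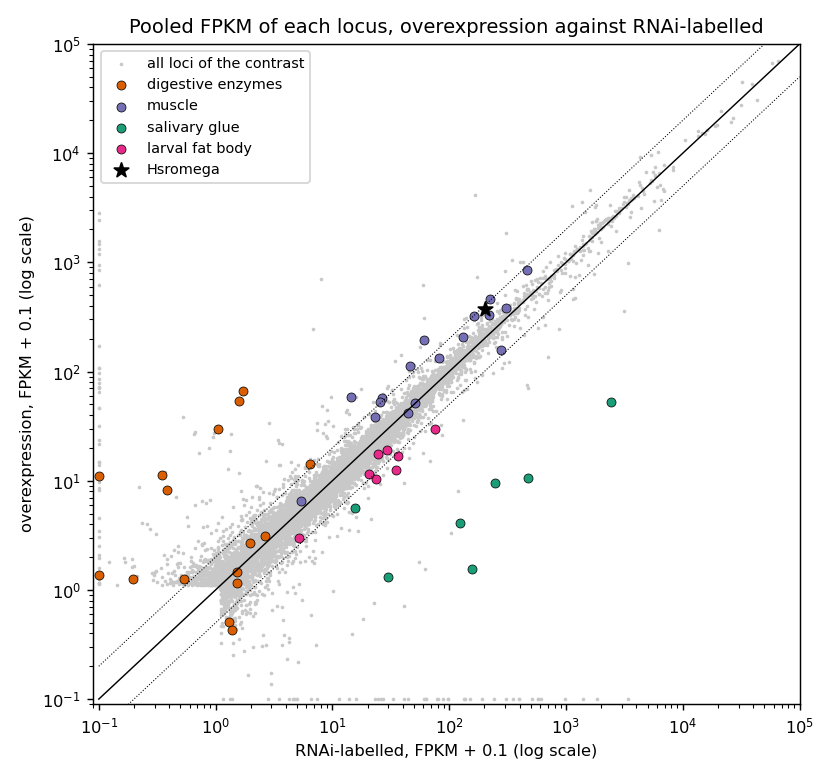
Pooled FPKM + 0.1 of each of the 9742 loci in overexpression discs (vertical, log scale) and RNAi-labelled discs (horizontal, log scale); the solid line marks equal levels and the dotted lines 2-fold. Most loci follow the line, the 7 expressed salivary glue loci lie below it, and Hsromega (star) lies inside the upper 2-fold line. Of the 16 expressed digestive enzyme loci, 12 lie above the line of equal levels and 4 below it.

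The choice of FPKM 1 fell between loci of nearly equal level. The 3 loci just inside were CG32284 (1.00 in overexpression discs and 0.797 in RNAi-labelled discs), CG2901 (1.00 in overexpression discs and 0.441 in RNAi-labelled discs) and CR44512 (0.913 in overexpression discs and 1.00 in RNAi-labelled discs). Just outside were NimB1 (0.999943 in overexpression discs and 0.271 in RNAi-labelled discs), CR43387 (0.278 in overexpression discs and 0.99944 in RNAi-labelled discs) and Cda5 (0.999002 in overexpression discs and 0.891 in RNAi-labelled discs).

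An error on the authors' own scale was derived for 9572 loci. The deposited test statistic of each group against the control implies a standard error for that log2 fold. The root of the sum of both squares, called the error bound here, counts the control's variance 2 times and so exceeds the error of the direct difference wherever the deposited statistic can be taken at its size. Its median was 1.34 on the log2 scale, larger than the 95th percentile of the differences. Loci whose difference was over 2 times this bound numbered 16 (0.167%) higher in overexpression discs and 13 (0.136%) lower, 29 in all, of which 6 are small RNA loci. At 5 of these, all snoRNA loci, a statistic past 2 stood beside p-values of 0.530 to 0.795 in the authors' deposited tables, so their bounds of 0.0488 to 0.310 cannot be read as an error. Without them 14 higher and 10 lower loci were left. The same mismatch, with a p above 0.05, was found at 23 of the 9572 loci. For Hsromega the bound was 3.15, against a log2 difference of 0.88. The bound was computed after the data were seen and is not a test.

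Large differences were seen in the genes of the salivary glue, the secreted proteins with which a pupariating larva sticks itself to a surface. Of 12 matched glue loci, 7 reached FPKM 1, and all 7 were 2-fold or more lower in overexpression discs than in RNAi-labelled discs, where 2.82% of all loci were. All 7 reached FPKM 1 in both groups. Sgs7 stood at FPKM 52.6 in overexpression discs and 2405 in RNAi-labelled discs, with 23.8 in control discs, a 45.7-fold difference (log2 -5.51, error bound 1.43). Sgs5 stood at 10.5 in overexpression discs and 476 in RNAi-labelled discs, with 5.63 in control discs (log2 -5.49, bound 1.5). Sgs8 stood at 9.47 in overexpression discs and 244 in RNAi-labelled discs, with 5.05 in control discs (log2 -4.68, bound 1.76). At these 3 genes overexpression discs lay somewhat above control discs and RNAi-labelled discs stood far apart from both.

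CG7587, listed as Sgs5bis in RefSeq, had the largest glue difference, with FPKM 1.46 in overexpression discs and 156 in RNAi-labelled discs, and 1.24 in control discs (log2 -6.64, bound 1.86). Sgs4 stood at 1.23 in overexpression discs and 30.1 in RNAi-labelled discs, with 4.15 in control discs, and its bound of 3.27 was wide. Sgs3 was the least different member, at 5.53 in overexpression discs and 15.6 in RNAi-labelled discs, with 7.74 in control discs (log2 -1.48, bound 1.55). Sgs7 and Sgs8 are closely related and could share reads. In the authors' deposited table Sgs7 had a q-value of 0.491 for overexpression against control and 0.00144 for RNAi against control. The salivary gland lies outside the disc, and its marker sum above is made of these same genes, so what salivary tissue or RNA contributed was not tested. In these bulk samples, fewer cells of a type and less RNA per cell cannot be told apart.

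Genes of the 71E puff are induced by ecdysone late in larval life. Eig71Ee, which is counted among the glue genes, stood at FPKM 3.96 in overexpression discs and 124 in RNAi-labelled discs, with 5.25 in control discs (log2 -4.93, bound 1.59). Of the 10 other matched Eig71E loci 3 reached FPKM 1, all of them through RNAi-labelled discs alone, so that their direction was fixed by the filter. With no filter, the median log2 difference over 8 loci was -0.94. Eig71Ea was listed at 0 in overexpression discs and at 11.2 in RNAi-labelled discs, with 1.26 in control discs. Eig71Eg was listed at 0 in overexpression discs and at 2.73 in RNAi-labelled discs, and Eig71Eb stood at 0.290 in overexpression discs and 3.74 in RNAi-labelled discs. Both were listed at 0 in control discs.

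Other loci were likewise high in RNAi-labelled discs. CG34296, in a run of neighbouring loci, stood at FPKM 7.88 in overexpression discs and 118 in RNAi-labelled discs, with 3.19 in control discs. The next loci are among the 15 largest differences in this direction. CG42460 stood at 1.47 in overexpression discs and 61.6 in RNAi-labelled discs, with 0.336 in control discs. The locus joining CG12310, CG18581 and CG43679 stood at 3.23 in overexpression discs and 103 in RNAi-labelled discs, with 4.04 in control discs. CG7606, CG31698, CG15404 and CG13840 had overexpression values of 0.211 to 1.71 and RNAi-labelled values of 7.10 to 55.5. Control discs were at or below 1.37 for each of these 4 loci, nearer the overexpression value. Where the overexpression value lay below FPKM 1, as at CG13840, the filter fixed the direction.

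**Figure D2:**
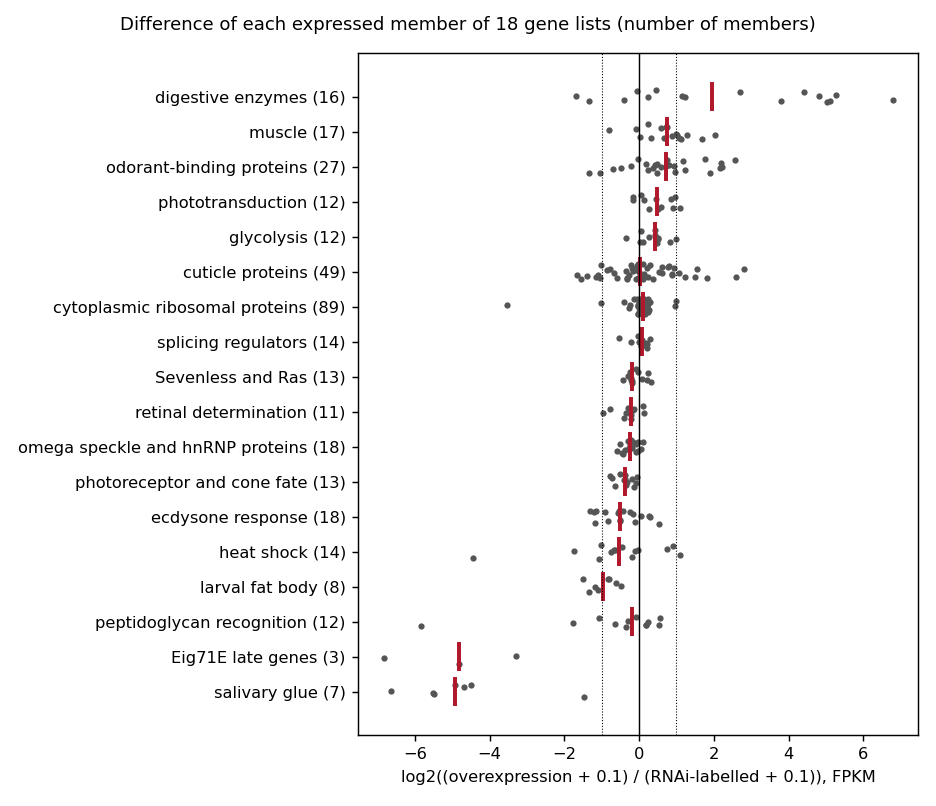
Log2 difference of overexpression over RNAi-labelled discs (horizontal) for each expressed member of 18 gene lists (points, 1 pooled value each; vertical jitter has no meaning), with the list median as a red bar and dotted lines at 2-fold. All 7 glue loci lie below -1, 10 of 16 digestive enzyme loci lie above 1, and the eye development and hnRNP lists lie within 2-fold.

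Genes of the larval fat body, which makes the storage proteins of the haemolymph, were lower in overexpression discs by less. Of 10 matched loci 8 reached FPKM 1, and all 8 had a log2 difference below 0 (median -0.96, against 0.03 over all loci). Of the 8, 4 were 2-fold or more lower, where 2.82% of all loci were. Fbp1, the receptor for storage protein uptake, stood at FPKM 10.3 in overexpression discs and 23.4 in RNAi-labelled discs, with 3.71 in control discs (log2 -1.18, bound 1.19). The larval serum protein gene Lsp2 stood at 16.8 in overexpression discs and 36.2 in RNAi-labelled discs, with 6.29 in control discs (log2 -1.10, bound 1.17). The joined locus CG42847,Fbp2 stood at 12.3 in overexpression discs and 35.3 in RNAi-labelled discs, with 4.18 in control discs. Control discs were the lowest of the 3 groups at each of these 3 loci, and none of their differences passed 2 error bounds. The fat body marker sum moved with them, and its part in the result was not tested.

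Immune genes were mixed. Peptidoglycan recognition proteins bind bacterial cell walls, and 3 of 12 expressed loci were 2-fold or more lower in overexpression discs, where 2.82% of all loci were, and none higher. PGRP-SB1 and PGRP-SB2 reached FPKM 1 in RNAi-labelled discs alone, so their direction was fixed by the filter. Among the 9 that reached it in both groups, 1 was lower and none higher. PGRP-SB2, a predicted secreted amidase, was far apart from the rest with FPKM 0.619 in overexpression discs and 40.6 in RNAi-labelled discs, and 1.07 in control discs (log2 -5.82, bound 1.99). Its q-value in the authors' deposited table was 0.863 for overexpression against control and 0.00824 for RNAi against control. PGRP-LA stood at 3.97 in overexpression discs and 8.40 in RNAi-labelled discs, with 2.96 in control discs, and PGRP-SB1 at 0.339 in overexpression discs and 1.39 in RNAi-labelled discs, with 1.01 in control discs.

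Of 14 expressed antimicrobial peptide loci, 1 was 2-fold or more higher in overexpression discs and 2 were lower, where 3.9% of all loci were higher and 2.82% lower. Of the 14, 4 reached FPKM 1 in overexpression discs alone, so their direction was fixed by the filter. Among the 10 that reached it in both groups, none was higher and 2 were lower. CecB stood at FPKM 3.57 in overexpression discs and 11.7 in RNAi-labelled discs, with 2.08 in control discs, while CecA1, which encodes a related cecropin, stood at 3.35 in overexpression discs and was listed at 0 in RNAi-labelled discs, with 0.707 in control discs. The neighbouring immune-induced genes IM2 and IM3 were higher in overexpression discs, at 3.52 and 4.03, with 0.176 and 0.133 in RNAi-labelled discs and 0.155 and 0.327 in control discs. Both lay below FPKM 1 in RNAi-labelled discs, so the filter fixed their direction. The haemocyte marker sums, 17.5 in overexpression discs and 18.3 in RNAi-labelled discs, lay close together.

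Several digestive enzyme genes were far higher in overexpression discs. Of 38 matched loci 16 reached FPKM 1, and 10 of the 16 were 2-fold or more higher in overexpression discs, where 3.9% of all loci were, while 2 were lower (median 1.96). Of the 16, 7 reached FPKM 1 in overexpression discs alone and 2 in RNAi-labelled discs alone, so their direction was fixed by the filter; among the 7 loci that reached it in both groups, 3 were 2-fold or more higher and none lower. The median was 0.25 over 35 loci with no filter, 1.01 with a pseudocount of 1 and 5.02 over 7 loci at FPKM 5 or more. Several of the largest differences were at Jonah genes, a family of related gut serine proteases. Jon65Aiv stood at FPKM 66.7 in overexpression discs and 1.63 in RNAi-labelled discs, with 0.886 in control discs, a 41.0-fold difference (log2 5.27, bound 1.79). Jon65Aiii stood at 54.0 in overexpression discs and 1.48 in RNAi-labelled discs, with 0.824 in control discs (log2 5.10, bound 1.82). The related yip7 stood at 29.7 in overexpression discs and 0.959 in RNAi-labelled discs, with 0.747 in control discs (log2 4.82, bound 1.90). For these 3 genes the overexpression value stood apart, and RNAi-labelled and control discs were close.

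The trypsin and lysozyme genes named below were likewise highest in overexpression discs. The trypsin gene deltaTry stood at FPKM 10.975 in overexpression discs, was listed at 0 in RNAi-labelled discs and stood at 0.0519 in control discs. Jon25Bi stood at 11.1 in overexpression discs and 0.245 in RNAi-labelled discs, with 0.353 in control discs. LysB and LysS, genes of the bacteria-digesting lysozymes of the larval gut, stood at 26.6 and 24.9 in overexpression discs and at 0.556 and 0.858 in RNAi-labelled discs, with 0.196 and 0.627 in control discs. Their error bounds were 10.2 and 6.73, wider than their log2 differences of 5.34 and 4.70. In RNAi-labelled discs deltaTry, Jon25Bi, LysB and LysS lay below FPKM 1, so the filter fixed their direction. LysD reached FPKM 1 in both groups, at 8.01 in overexpression discs and 1.55 in RNAi-labelled discs, with 1.12 in control discs. Its error bound of 6.09 was wider than its log2 difference of 2.30. Members that went the other way were low: Jon99Fi stood at 0.326 in overexpression discs and 1.28 in RNAi-labelled discs, and Jon66Ci at 0.412 in overexpression discs and 1.20 in RNAi-labelled discs.

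The Jonah and lysozyme genes are families of close copies, so the split of reads within each is uncertain. In the authors' deposited table Jon65Aiv had a q-value of 0.00653 for overexpression against control and 0.790 for RNAi against control. The gut markers include Jon65Aiii, Jon65Aiv and yip7 themselves, so the gut marker sum is no separate measure, and the part of gut tissue or RNA in the result was not tested.

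The 15 largest differences in favour of overexpression also held uncharacterised and joined loci. CG31789 stood at FPKM 27.3 in overexpression discs and 0.873 in RNAi-labelled discs, with 0.532 in control discs. CG8997 and CG7953 stood at 20.04 and 17.8 in overexpression discs and at 0.773 and 0.617 in RNAi-labelled discs, with 1.63 and 0.954 in control discs. Their error bounds of 5.53 and 7.11 were wider than their log2 differences of 4.53 and 4.64. CG12115 stood at 8.66 in overexpression discs and 0.122 in RNAi-labelled discs, with 0.433 in control discs. Further loci join a gene with a small RNA under 1 value, and cannot be assigned to either: mir-4940,nwk stood at 38.6 in overexpression discs and 0.426 in RNAi-labelled discs, and the locus of mir-184, CG17048 and CR44206 at 28.1 in overexpression discs and 0.564 in RNAi-labelled discs. Another, ab,snoRNA:Me18S-G642, stood at 244 in overexpression discs and 6.71 in RNAi-labelled discs, with 303 in control discs and an error bound of 27.9. The other loci of this paragraph lay below FPKM 1 in RNAi-labelled discs, so the filter fixed their direction.

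**Figure D3:**
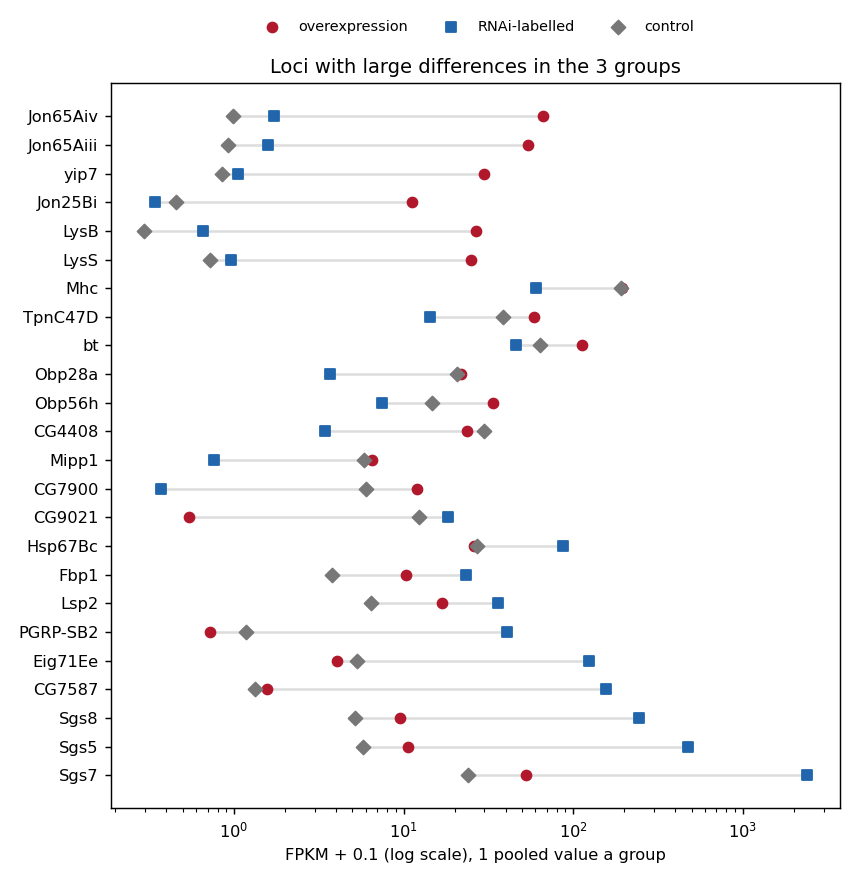
Pooled FPKM + 0.1 (horizontal, log scale) of 24 loci with large differences in overexpression, RNAi-labelled and control discs, 1 value a group. RNAi-labelled discs stand apart from the other groups at the Sgs genes, overexpression discs stand apart at the Jonah genes, and at Mhc, Obp28a, Mipp1 and CG4408 control discs lie near overexpression discs.

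Muscle genes were higher in overexpression discs. Of 17 expressed sarcomere genes, 6 were 2-fold or more higher and none was 2-fold or more lower (median 0.74), where 3.9% of all loci were higher and 2.82% lower. All 17 reached FPKM 1 in both groups. TpnC47D, a troponin C, stood at FPKM 58.7 in overexpression discs and 14.3 in RNAi-labelled discs, with 38.5 in control discs (log2 2.03, bound 1.23). Mhc, the muscle myosin heavy chain, stood at 194 in overexpression discs and 60.6 in RNAi-labelled discs, with 191 in control discs (log2 1.68, bound 1.29). The titin-related genes bt and sls stood at 113 and 52.2 in overexpression discs and at 46.2 and 25.7 in RNAi-labelled discs, with 63.7 and 38.8 in control discs. TpnC73F went the other way, at 157 in overexpression discs and 276 in RNAi-labelled discs, with 184 in control discs. For Mhc the authors' deposited table gave a q-value of 0.995 for overexpression against control and 0.110 for RNAi against control. Muscle is not part of the disc epithelium, and its part in the result was not tested.

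Odorant-binding proteins, small secreted carriers found in sensory organs and elsewhere, differed at some members. Of 27 expressed loci, 17 lay within 2-fold, 8 were 2-fold or more higher in overexpression discs and 2 lower (median 0.72), where 3.9% of all loci were higher and 2.82% lower. Of the 27, 6 reached FPKM 1 in overexpression discs alone and 1 in RNAi-labelled discs alone, so their direction was fixed by the filter. Among the 20 that reached it in both groups, 6 were higher and 2 lower. Obp28a stood at FPKM 21.6 in overexpression discs and 3.60 in RNAi-labelled discs, with 20.5 in control discs (log2 2.55, bound 1.35). Obp56e stood at 142 in overexpression discs and 38.5 in RNAi-labelled discs, with 156 in control discs (log2 1.88, bound 1.16). At both genes control and overexpression discs were close and RNAi-labelled discs were low. In the authors' deposited table RNAi against control had a q-value of 0.0260 for Obp28a and 0.0172 for Obp56e, and overexpression against control 0.994 and 0.993 for the same genes. The 2 lower members were Obp99b, which is also listed with the fat body, at 29.9 in overexpression discs and 75.6 in RNAi-labelled discs, with 11.1 in control discs, and its neighbour Obp99c.

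Cuticle protein genes went both ways, with 7 of 49 expressed loci 2-fold or more higher and 7 lower, where 3.9% of all loci were higher and 2.82% lower. Of the 49, 5 reached FPKM 1 in overexpression discs alone and 3 in RNAi-labelled discs alone, so their direction was fixed by the filter. Among the 41 that reached it in both groups, 3 were higher and 6 lower. Cpr11B stood at FPKM 58.9 in overexpression discs and 9.66 in RNAi-labelled discs, with 36.1 in control discs, and Cpr49Ac at 123 in overexpression discs and 324 in RNAi-labelled discs, with 240 in control discs. Among 40 expressed cytochrome P450 loci, 4 were higher and 1 lower, and among 28 glutathione transferase loci, 3 were higher and none lower, where 3.9% of all loci were higher and 2.82% lower. Of these, 5 P450 and 2 transferase loci reached FPKM 1 in overexpression discs alone, and 1 P450 locus in RNAi-labelled discs alone. The filter fixed their direction. Among loci that reached it in both groups, 2 of 34 P450 loci were higher and 1 lower, and 2 of 26 transferase loci were higher. Cyp12c1 stood at 3.79 in overexpression discs and 0.751 in RNAi-labelled discs, with 1.16 in control discs. GstD2 stood at 8.36 in overexpression discs and 3.39 in RNAi-labelled discs, with 2.83 in control discs. None of the 12 glycolytic genes passed 2-fold, though 11 of 12 had a log2 difference above 0 (median 0.43), with the aldolase gene Ald at 104 in overexpression discs and 52.6 in RNAi-labelled discs, and 179 in control discs.

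Among the loci past 2 error bounds, several differed between overexpression and RNAi-labelled discs while the control lay near overexpression; they are named here after their values were seen. Mipp1, an inositol polyphosphate phosphatase, stood at FPKM 6.43 in overexpression discs and 0.662 in RNAi-labelled discs, with 5.75 in control discs (log2 3.10, bound 1.34). As it lay below FPKM 1 in RNAi-labelled discs, the filter fixed its direction. CG4408 stood at 23.6 in overexpression discs and 3.34 in RNAi-labelled discs, with 29.8 in control discs (log2 2.78, bound 1.14). CG14456 and CG32249 stood at 12.6 and 11.8 in overexpression discs and at 1.17 and 1.47 in RNAi-labelled discs, with 15.9 and 10.3 in control discs. CG9090, a mitochondrial phosphate carrier, stood at 15.0 in overexpression discs and 2.62 in RNAi-labelled discs, with 14.1 in control discs. In the authors' deposited table the q-value for RNAi against control was 0.00824 at Mipp1 and 0.00144 at CG4408, and that for overexpression against control was 0.990 and 0.916 at the same genes.

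The opposite profile, with overexpression discs apart and the control near RNAi-labelled discs, was seen at CG9021. It stood at FPKM 0.446 in overexpression discs and 18.2 in RNAi-labelled discs, with 12.3 in control discs (log2 -5.06, bound 1.56). Its q-value in the authors' deposited table was 0.0129 for overexpression against control and 0.833 for RNAi against control. At CG7900 the control lay between, with 11.9 in overexpression discs, 0.270 in RNAi-labelled discs and 5.93 in control discs (log2 5.02, bound 1.57). CG9021 and CG7900 each lay below FPKM 1 in their lower group, so the filter fixed their direction. Over all 380 loci 2-fold or more higher in overexpression discs, the control was nearer to overexpression at 200 and nearer to RNAi-labelled discs at 180 on the log2 scale. Over the 275 lower loci, it was nearer to overexpression at 181 and nearer to RNAi-labelled discs at 94.

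Heat shock genes were of interest because Hsromega is itself heat-inducible. Of 14 expressed members, 1 was 2-fold or more higher in overexpression discs and 4 were lower (median -0.54), where 3.9% of all loci were higher and 2.82% lower. Among the 12 that reached FPKM 1 in both groups, 1 was higher and 3 were lower. The small heat shock gene Hsp67Bc stood at FPKM 26.0 in overexpression discs and 86.7 in RNAi-labelled discs, with 27.1 in control discs (log2 -1.73, bound 1.18). Hsp27 stood at 316 in overexpression discs and 635 in RNAi-labelled discs, with 532 in control discs. Hsp70Ba, of the main inducible chaperone family, was low at 0.0371 in overexpression discs and 2.87 in RNAi-labelled discs, with 0.0217 in control discs, and its near-identical copies make its value uncertain. The small chaperone gene l(2)efl went the other way, at 176 in overexpression discs and 83.2 in RNAi-labelled discs, with 160 in control discs. The most abundant members differed little, with Hsp23 at 2605 in overexpression discs and 3562 in RNAi-labelled discs, and Hsp83 at 959 in overexpression discs and 987 in RNAi-labelled discs. All 8 constitutive chaperone genes lay within 2-fold.

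Genes of the ecdysone response were lower in overexpression discs at 4 of 18 expressed members and higher at none (median -0.51), where 2.82% of all loci were lower and 3.9% higher. ImpE2, an ecdysone-inducible gene of imaginal discs, stood at FPKM 460 in overexpression discs and 1152 in RNAi-labelled discs, with 1075 in control discs (log2 -1.32, bound 1.35). Its neighbour in name ImpE1 stood at 19.9 in overexpression discs and 45.0 in RNAi-labelled discs, with 93.0 in control discs. The ecdysone-induced transcription factor genes Hr4 and Blimp-1 stood at 2.05 and 5.53 in overexpression discs and at 4.82 and 12.5 in RNAi-labelled discs, with 25.4 and 35.1 in control discs. The Broad gene br, an early regulator of metamorphosis, stood at 64.7 in overexpression discs and 93.6 in RNAi-labelled discs, with 384 in control discs. None of these differences passed 2 error bounds. The ring gland, which makes ecdysone, had marker sums of 71.1 in overexpression discs and 82.1 in RNAi-labelled discs, and no member of its enzyme list passed 2-fold. Long transcripts as a whole were lower in overexpression discs, and after the running median for transcript length was taken off the ecdysone median was -0.34.

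Eye development genes were close in both groups. None of the 13 photoreceptor and cone fate genes passed 2-fold, though all 13 had a log2 difference below 0 (median -0.39, or -0.21 after the length trend). The glass gene gl stood at FPKM 7.74 in overexpression discs and 12.1 in RNAi-labelled discs, with 32.0 in control discs (log2 -0.64, bound 1.28). The cone cell gene ct stood at 1.46 in overexpression discs and 2.57 in RNAi-labelled discs, with 11.4 in control discs. B-H2, of the R1 and R6 photoreceptors, stood at 5.06 in overexpression discs and 8.50 in RNAi-labelled discs, with 17.6 in control discs. At lz and salm the 2 groups nearly met, with 3.03 and 1.49 in overexpression discs and 3.99 and 1.65 in RNAi-labelled discs, and control discs were higher at 16.4 and 7.48.

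Of the 11 genes that specify the eye field, 9 had a log2 difference below 0 and 2 above, and none passed 2-fold on the log2(FPKM + 0.1) scale (median -0.23). The largest difference was at toe, a low locus at FPKM 0.605 in overexpression discs and 1.28 in RNAi-labelled discs, with 4.07 in control discs. The eyes absent gene eya stood at 21.5 in overexpression discs and 28.6 in RNAi-labelled discs, with 71.2 in control discs, while ey, the fly Pax6 gene, stood at 19.3 in overexpression discs and 17.6 in RNAi-labelled discs, with 25.1 in control discs. No member passed 2-fold among the 13 genes of furrow signalling, the 5 of the R8 founder, the 13 of the Sevenless and Ras cascade, the 11 of the EGF receptor, the 7 nuclear effectors of Ras, the 23 of the Notch pathway, the 11 of the Jun kinase cascade, the 13 of Hippo and Fat growth control and the 13 of apoptosis. Their medians ran from -0.30 for the Ras effectors to -0.04 for apoptosis. Among 14 Wingless genes the joined locus Notum,mir-4941 alone was 2-fold or more lower, where 2.82% of all loci were. It stood at 3.01 in overexpression discs and 10.9 in RNAi-labelled discs, and a small RNA shares its value. Of 12 light-sensing genes 10 had a log2 difference above 0 (median 0.48), and 1 was 2-fold or more higher, where 3.9% of all loci were. It was trpl, a light-activated channel, at 3.71 in overexpression discs and 1.68 in RNAi-labelled discs, with 3.02 in control discs.

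**Figure D4:**
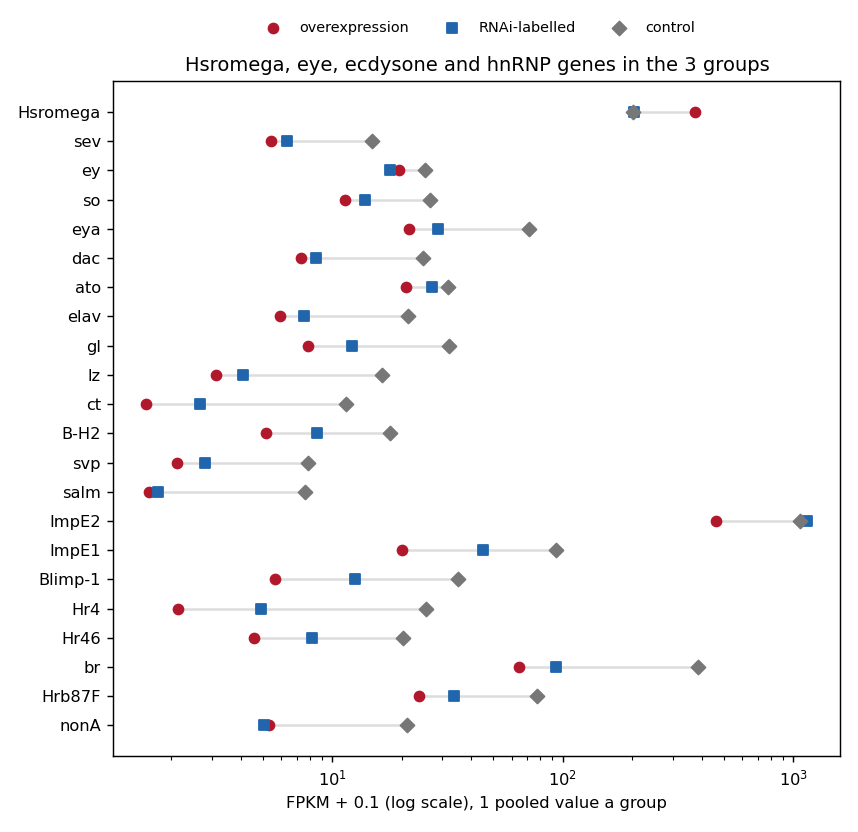
Pooled FPKM + 0.1 (horizontal, log scale) of Hsromega and 21 eye, ecdysone and hnRNP genes in overexpression, RNAi-labelled and control discs, 1 value a group. Apart from Hsromega, the overexpression and RNAi-labelled values lie close together at most genes and the control lies highest at all but ImpE2.

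Genes of the proteins that Hsromega transcripts gather had similar RNA levels in both groups. None of 18 omega speckle and hnRNP genes passed 2-fold, and 16 of 18 had a log2 difference below 0 (median -0.23, or -0.15 after the length trend). Hrb87F, the hnRNP used as a mark of omega speckles, stood at FPKM 23.5 in overexpression discs and 33.5 in RNAi-labelled discs, with 77.3 in control discs (log2 -0.51, bound 1.28). The largest difference was at sm, an hnRNP L homologue, at 8.95 in overexpression discs and 13.6 in RNAi-labelled discs, with 28.7 in control discs. The speckle protein gene nonA met at 5.18 in overexpression discs and 4.97 in RNAi-labelled discs, with 21.1 in control discs. The chromatin genes osa and nej, which encode a Brahma complex subunit and the CBP acetyltransferase, met in the same way. They stood at 5.89 and 3.35 in overexpression discs and at 5.54 and 3.37 in RNAi-labelled discs, against 48.7 and 26.3 in control discs.

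The remaining gene groups were also close. All 14 splicing regulators, 18 Brahma and trithorax genes, 14 Polycomb genes, 16 DNA replication genes, 73 mitochondrial ribosomal protein genes and 7 dosage compensation genes lay within 2-fold. Of 89 cytoplasmic ribosomal protein loci, 2 were 2-fold or more lower in overexpression discs, where 2.82% of all loci were. They were RpS28a, at FPKM 0.267 in overexpression discs and 4.13 in RNAi-labelled discs, and RpL3, which shares its locus with a snoRNA. RpS28a reached FPKM 1 in RNAi-labelled discs alone, so the filter fixed its direction. In all, 32 of 56 lists had no member past 2-fold. Of dosage compensation genes, the male-specific RNAs roX1 and roX2 stood at 197 and 906 in overexpression discs and at 214 and 671 in RNAi-labelled discs, with 173 and 319 in control discs.

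Small RNA loci made up a large part of the extreme values. Of 307 such loci, 59 were 2-fold or more higher in overexpression discs and 61 lower (19.2% and 19.9%), whereas among the other 9435 loci 3.40% were higher and 2.27% lower. A total of 74 small RNA loci were listed at 0 in either group, 42 in overexpression discs and 32 in RNAi-labelled discs. Some alternated between a high value and 0: mir-13b-1 was listed at 0 in overexpression discs and at FPKM 3396 in RNAi-labelled discs, with 0 in control discs, and mir-1006 at 1562 in overexpression discs, with 0 in RNAi-labelled and control discs. Listed at 0 in overexpression discs and at 100 or more in RNAi-labelled discs were 17, and 12 were the reverse. Among all other loci, 5 were listed at 0 in overexpression discs and 16 in RNAi-labelled discs.

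Some neighbouring copies of small RNA genes went opposite ways. The snoRNA gene snoRNA:U27:54Ea was listed at 0 in overexpression discs and 1826 in RNAi-labelled discs, with 1214 in control discs, whereas snoRNA:U27:54Eb stood at 2458 in overexpression discs and was listed at 0 in RNAi-labelled discs, with 407 in control discs. Likewise snoRNA:U14:30Ea stood at 244 in overexpression discs and 863 in RNAi-labelled discs, and snoRNA:U14:30Eb at 1004 in overexpression discs and 432 in RNAi-labelled discs. Such copies can share reads, and their single values are uncertain. The spliceosomal snRNA:U2:34ABa stood at 708 in overexpression discs and 7.88 in RNAi-labelled discs, with 10.7 in control discs (log2 6.47, bound 1.93), and belongs to a family of copies. By class, 36 of 210 snoRNA loci were 2-fold or more higher in overexpression discs and 31 lower, and 20 of 57 microRNA loci were higher and 26 lower. Over all loci 3.9% were higher and 2.82% lower. Of the microRNA loci, 16 reached FPKM 1 in overexpression discs alone and 24 in RNAi-labelled discs alone, so their direction was fixed by the filter. Among the 17 that reached it in both groups, 4 were higher and 2 lower. For snoRNA loci, 181 reached it in both groups, with 21 higher and 17 lower.

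The share of loci past 2-fold varied with level and transcript length. Below a mean FPKM of 2, 10.96% of 1460 loci were 2-fold or more higher in overexpression discs and 6.51% lower, whereas between 20 and 100 the shares were 1.94% and 1.81% of 2320 loci. At 100 or more they were 4.05% higher and 4.41% lower of 839 loci, above those of the middle levels. Where the longest transcript was under 300 nt, 17.3% of 359 loci were higher and 18.4% lower, and between 3000 and 6000 nt 0.869% and 0.716% of 1956 loci were. At 6000 nt or more the shares were 1.86% higher and 1.24% lower of 646 loci. The median difference was 0.14 between 700 and 1500 nt and -0.20 at 6000 nt or more, so long transcripts were slightly lower in overexpression discs as a class. Chromosome 3L held the highest shares, 5.36% higher and 4.59% lower of 1959 loci, and chromosome X had 2.37% higher and 2.30% lower of 1521 loci.

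**Figure D5:**
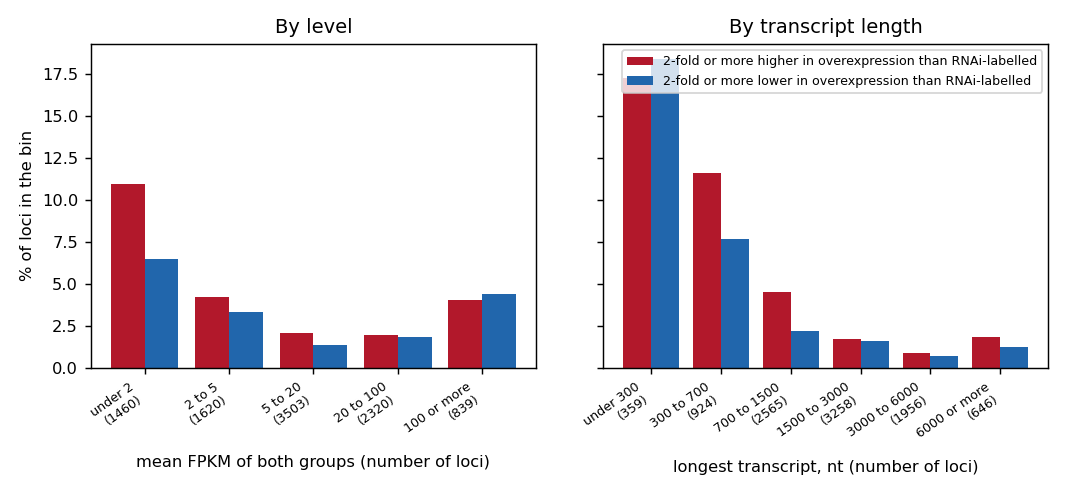
Percentage of loci 2-fold or more higher (red) and lower (blue) in overexpression than in RNAi-labelled discs, by mean FPKM of both groups (left) and by longest transcript in nt (right), with the number of loci in brackets. Shares are highest for transcripts under 300 nt, at 17.3% and 18.4%, and lowest between 3000 and 6000 nt.

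Loci past 2-fold also lay side by side on the chromosomes. In dm6, 18 runs held 3 or more consecutive expressed loci past 2-fold in 1 direction, each within 50 kb of the next; 10 runs were higher in overexpression discs, 8 were lower and they held 63 loci. The glue genes Sgs8, Sgs7 and Sgs3, with CG33500, lay within 4.77 kb (chromosome 3L, 11508637 to 11513402). CG7587, Sgs5 and CG7606 lay within 2.53 kb (3R, 17594386 to 17596917), and 4 Eig71E genes with CG43083 within 9.59 kb (3L, 15648571 to 15658158). In that last run Eig71Ee alone reached FPKM 1 in both groups, so the direction of its other members was fixed by the filter. Pig1, the gene next to Sgs4, stood at FPKM 0.210 in overexpression discs and 3.58 in RNAi-labelled discs, with 0.211 in control discs. Pig1 and CG33500 lay below FPKM 1 in overexpression discs, so their direction was fixed by the filter as well.

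Runs higher in overexpression discs held the protease genes yip7, Jon65Aiv and Jon65Aiii within 16.5 kb (3L, 6035216 to 6051690) and alphaTry, betaTry and deltaTry within 12.3 kb on 2R. Obp56b, Obp56c, Obp56d and Obp56e formed another within 14.2 kb on 2R, in which Obp56d stood at FPKM 302 in overexpression discs and 134 in RNAi-labelled discs, with 246 in control discs. IM23, IM1, IM2 and IM3 formed a run of 6.03 kb on 2R. These genes, the trypsin genes above, yip7 and Obp56c reached FPKM 1 in overexpression discs but not in RNAi-labelled discs. Their direction was therefore fixed by the filter. A run of 5 loci on 3L, CG14177 to CG3280, was higher in overexpression than in RNAi-labelled discs at each locus and highest in control discs at each, as at CG14177, with 3.03 in overexpression discs, 1.06 in RNAi-labelled discs and 6.86 in control discs. Its members CG3222, CG3306 and CG3280 likewise lay below FPKM 1 in RNAi-labelled discs. Most of the named runs are clusters of related genes, so their members are not independent of each other.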

How the data were processed

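RNA from eye discs was sequenced as stranded, ribosome-depleted total RNA in pairs of 50 nt reads over 2 lanes, per the labels' protocols. The authors' deposited FPKM values pool both libraries of a group into 1 value, per the file headers. Cuffdiff 2.1.1, TopHat, Bowtie, Cufflinks and the dm6 build are named in the submitters' processing notes. Use of strand in assigning fragments is not stated there, so values of genes that overlap, or lie antisense to each other, are uncertain. The test statistic, a score, and the p-value and q-value are those of the authors' deposited tables. The depth is unknown.

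Both tables were joined by locus (pandas 2.3.3, Python 3.11.15), and log2((overexpression + 0.1)/(RNAi + 0.1)) was computed where FPKM was 1 or more in either group. A limma fit, planned for values per library, was not run. The calculation was tested on simulated data. Of the expressed loci, 496 join 2 or more genes. Lengths came from the Ensembl 115 annotation (99.7% of expressed loci); the length trend was a running median of 250 loci on each side. Starts in the files count from 0 and are given from 1. The members and the 56 gene lists were chosen with earlier results of these data known. Named loci are Hsromega, w and sev, the 15 largest differences each way at FPKM 5 or more without small RNAs, up to 4 members of each list, the 3 loci on either side of FPKM 1 and the genomic runs; members named beyond these were chosen after their values were seen. Alternatives changed the pseudocount, the filter, the centring, the length trend, and the small RNA and joined loci.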

Additional observations from a re-analysis of the deposited data

How the results depend on the processing

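The overall median of 0.03 moved by less than 1.5-fold under each alternative other than recentring and the length trend. Recentring and the length trend bring it to 0 by construction, so they cannot show how stable it is. The 2-fold count of 380 higher in overexpression became 220 with a pseudocount of 1, 913 with no filter and 178 with FPKM of 5 or more; the count of 275 lower became 167, 613 and 145 under the same settings. The 4-fold count of 124 higher became 73 with a pseudocount of 1, 209 with no filter and 73 with FPKM of 5 or more. The 4-fold count of 98 lower became 155 with no filter, 64 with FPKM of 5 or more and 52 without small RNA loci. Of 446 list medians recomputed, 8 moved by 1.5-fold or more, those of the digestive enzyme and Eig71E lists among them. Of the 285 named loci, 75 moved as far with a pseudocount of 1 and 31 with a pseudocount of 0.01. These 106 were the only ones to move among 2162 recomputed values. The filter and the leaving out of loci cannot change the value of a single locus, so those settings show nothing about it. A pseudocount of 0.01, recentring, the length trend and leaving out joined loci kept every count within 1.5 times. The share of higher against lower loci is set by fold alone and carries no test.

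No paired analysis was possible because the deposited values pool the replicates of each group. For the same reason leaving out single libraries was not run. Depth, and so the precision of low loci, is unknown. How far a single library carries the glue or protease values was not tested.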
